A study of Mus musculus with 7 samples.

Results

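Transcript levels were described in EGFP+ prospermatogonia, the fetal male germ cells, purified from testes of wild-type (WT) fetuses at 15.5 days post coitum (15.5 dpc in the protocol of the labels, 15 dpc in the source name). The 2 WT libraries were taken, out of 7 total RNA-seq libraries in the series. The others, 2 of *H19*Ter/*H19*Ter and 3 of *H19*Ter+neo/*H19*Ter+neo genotype, carry a targeted terminator of transcription upstream of the imprinting control region between *H19* and *Igf2*, and their values were not compared here. According to the methods, germ cells carried the TgOG2 transgene, in which the *Pou5f1* promoter drives EGFP, and were sorted by flow cytometry after trypsin digestion of up to 8 testes together. The sources used here do not give the number of fetuses behind each WT library, or whether both came from separate litters, so the spread between the libraries may be technical in part. All 20643 genes with a value were ranked, of 55450 annotated in GENCODE vM21.

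Prospermatogonia, also named gonocytes, descend from primordial germ cells that have settled in the testis cords, where Sertoli cells surround them. Around this age they stop dividing, silence the pluripotency network and build DNA methylation anew, including the paternal imprints. PIWI proteins loaded with small RNA (piRNA) guide part of this methylation, chiefly at transposons. Male germ cells enter meiosis only after birth.

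The deposited log2 CPM values (counts scaled to a normalised library size) gave back whole read pairs, 45.1 M in replicate 1 and 45.9 M in replicate 2, with 34 and 49 of the 20643 genes at 0. To set genes beside each other, read pairs were divided by the length of the merged exons and scaled to a fixed total per library (TPM). Unless stated otherwise, paired values are TPM in replicate 1 and replicate 2, in that order, and a place is the rank of the mean TPM among the 15128 nuclear protein-coding genes of at least 200 exonic bases, counted from the highest. The median of these 15128 genes was 12.1 and 12.2 TPM, their lower quartile 2.12 and 1.996 TPM, their upper quartile 35.97 and 36.6 TPM, and the highest 10% began at 78.3 and 80.6 TPM. In both libraries 12336 of them (81.5%) reached 1 TPM and 1029 (6.80%) reached 100 TPM. The 15128 genes are those with a value, so these are not shares of all annotated protein-coding genes. By autosome, from 56.4% (chromosome 14) to 79.6% (chromosome 12) of annotated protein-coding genes were ranked. List medians likewise cover only members with a value. Over genes of every kind, 16563 reached 1 TPM in both libraries.

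The identity of the sorted cells was read first from 4 markers of fetal male germ cells. *Dazl*, an RNA-binding protein that licenses germ cells for sexual differentiation, stood at 776 and 880.3 TPM, place 25. *Ddx4*, the germ cell RNA helicase also known as mouse vasa homologue, was at 688 and 742 TPM, place 34. *Pou5f1*, whose promoter also drives the sorted EGFP, was at 336 and 351 TPM, place 130, a level the sort itself may favour. *Dnmt3l*, the catalytically inactive partner of the de novo DNA methyltransferases, was lower, at 42.5 and 34.6 TPM and place 3543, close to the upper quartile of all ranked genes. Thus all 4 markers were above the median of protein-coding genes in both libraries, and 3 of them were among the highest 10%.

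Germ cell identity genes, a list drawn up with earlier results of these data known, were abundant throughout. All 20 members had a value, and 20 of 20 were among the highest 10% of ranked genes, with a median of 216 and 215 TPM. The highest was *Dppa3*, also known as Stella, which protects DNA methylation in the zygote, with 1121 and 1327 TPM and place 13. *Mael*, a piRNA factor of the nuage, the granular material of germ cells, followed with 996 and 945 TPM and place 21. *Stk31*, a tudor domain kinase of germ cells, had 658 and 666 TPM. Several members are germ cell copies of genes that other cells use, and these could be read beside their partners. *Nxf2*, the germline relative of the mRNA export factor *Nxf1*, was at 268 and 265 TPM, 1.98 and 1.90 times the level of *Nxf1*. *Slc25a31*, the germ cell carrier of ADP and ATP in mitochondria, was at 247 and 266 TPM, 1.46 and 1.39 times that of the broadly expressed carrier *Slc25a4*. *Rpl10l*, an intronless copy of the X-linked ribosomal protein gene *Rpl10*, was at 148 and 133 TPM, 0.689 and 0.544 times the level of *Rpl10*. The lowest members were *Tex101*, a surface protein of germ cells, at 106 and 87.7 TPM, and *Hormad1*, a protein of the meiotic chromosome axis, at 107 and 111 TPM. Since only uniquely placed reads were counted by STAR, genes with near-identical copies, *Rpl10l* and *Rpl10* among them, may be counted too low.

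**Figure D1:**
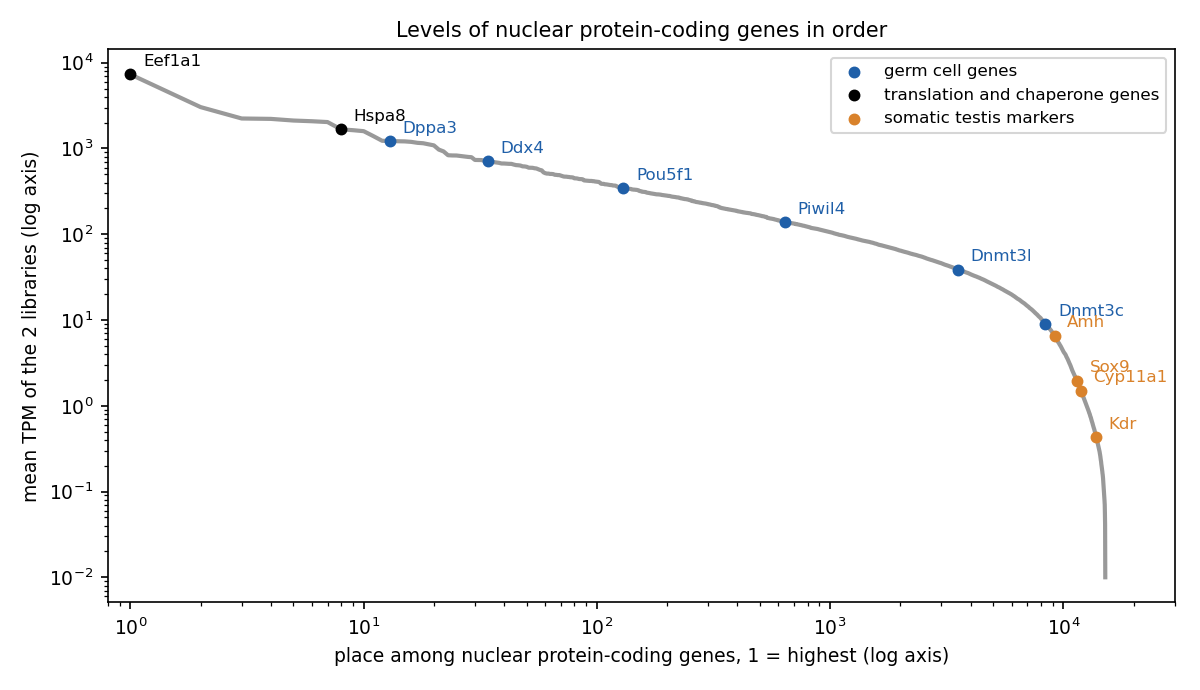
Mean TPM of the 2 WT libraries (log axis) against the place of each of the 15128 nuclear protein-coding genes (log axis), with a point for each of 12 named genes. The germ cell genes *Dppa3*, *Ddx4* and *Pou5f1* lie at places 13, 34 and 130, while the somatic testis markers *Amh*, *Sox9*, *Cyp11a1* and *Kdr* lie at places 9171, 11437, 11897 and 13837.

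The 250 bases before the start of these genes were read from RefSeq (GRCm38.p6) and searched for letter patterns. The hexamer CACGTG, an E-box that reads alike on both strands and is bound by basic helix-loop-helix factors such as MYC and MAX, was present in 11 of the 18 promoters found for the 20 identity genes (61.1%). Among all 11958 promoters searched, of 14734 ranked genes, the share was 8.30%, and among the 7904 of these with more than 10 CpG it was 10.1%. The share was higher in abundant genes, as the identity genes are. It was 7.94% for genes at 5 to 20 TPM and 12.8% (111 of 867) for genes at 100 TPM or more. The 11 genes were *Brdt*, *Ddx4*, *Hormad1*, *Mael*, *Mov10l1*, *Nxf2*, *Slc25a31*, *Stk31*, *Sycp3*, *Taf7l* and *Tdrd1*. They held 17 copies in all, 5 of them in *Nxf2*, whose promoter repeats the hexamer. Of these copies, those repeated in *Nxf2* included, 15 lay within 100 bases of the start, with a median distance of 55 bases and a range of 7 to 246. Distances in the promoters of other genes were not described, so closeness to the start cannot be read as particular to the identity genes. Promoters of meiotic prophase genes held the hexamer in 8 of 31 (25.8%), *Hormad1* and *Sycp3* being in both lists. Outside germ cell lists, the hexamer was in 2 of 25 promoters of mitosis genes and 0 of 11 of genes of distant tissues. The former share, 8%, was close to that of all promoters, and 11 promoters are too few to show a lack. Splicing and RNA-binding factors held it in 4 of 21, translation factors in 3 of 20 and glycolysis genes in 3 of 21. Integrated stress response targets held it in 0 of 18 and peroxide defence genes in 0 of 17. The hexamer was thus not confined to germ cell lists. Promoters were found for under 80% of some other germ cell lists, whose counts are given without a share. The hexamer was in 9 of 22 promoters found for the PIWI pathway, which shares members with the identity list, but in 1 of 14 of the male fetal programme, 1 of 14 of spermatogonial stem cell genes, 1 of 9 of primordial germ cell genes and 2 of 12 of pluripotency factors. Of the other patterns searched, CCAAT was in 44.4% of the 18 identity promoters against 36.6% of all. GGGCGG was in 61.1% against 57.1%, and TATAAA in 11.1% against 6.98%. A match is a description of letters and not a bound site, and the motif was chosen from these patterns with the levels of these genes known.

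Whole upstream windows are shown for 5 germ cell genes that differ in letters, 5′ to 3′ on the strand of the gene, ending at the base before the start. Capitals mark CACGTG in *Ddx4* (chr13:112652311-112652560, minus strand, 31 CpG), *Mael* (chr1:166238745-166238994, minus strand, 18 CpG) and *Stk31* (chr6:49395289-49395538, plus strand, 21 CpG). In *Dazl* (chr17:50293621-50293870, minus strand, 20 CpG) and *Nanos2* (chr7:18987274-18987523, plus strand, 0 CpG), which lack the hexamer, capitals mark CCAAT on either strand.
Ddx4: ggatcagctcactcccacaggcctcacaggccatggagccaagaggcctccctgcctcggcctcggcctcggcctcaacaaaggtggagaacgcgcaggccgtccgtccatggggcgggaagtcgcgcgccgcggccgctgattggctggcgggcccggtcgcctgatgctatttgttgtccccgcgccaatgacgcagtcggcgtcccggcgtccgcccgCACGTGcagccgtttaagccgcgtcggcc
Mael: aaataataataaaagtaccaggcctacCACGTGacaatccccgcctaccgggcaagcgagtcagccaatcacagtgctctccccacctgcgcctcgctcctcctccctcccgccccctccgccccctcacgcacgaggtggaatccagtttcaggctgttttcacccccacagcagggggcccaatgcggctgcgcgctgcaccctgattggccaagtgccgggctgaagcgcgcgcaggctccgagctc
Stk31: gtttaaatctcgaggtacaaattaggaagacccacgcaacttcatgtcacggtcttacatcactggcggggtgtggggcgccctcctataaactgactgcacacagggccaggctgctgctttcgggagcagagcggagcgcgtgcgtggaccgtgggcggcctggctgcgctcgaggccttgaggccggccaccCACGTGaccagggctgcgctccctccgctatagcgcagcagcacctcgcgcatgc
Dazl: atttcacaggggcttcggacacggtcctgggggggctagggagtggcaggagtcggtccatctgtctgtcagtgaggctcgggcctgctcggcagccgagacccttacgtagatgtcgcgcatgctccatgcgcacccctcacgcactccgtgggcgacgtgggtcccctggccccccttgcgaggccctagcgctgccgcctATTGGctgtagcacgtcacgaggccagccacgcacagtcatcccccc
Nanos2: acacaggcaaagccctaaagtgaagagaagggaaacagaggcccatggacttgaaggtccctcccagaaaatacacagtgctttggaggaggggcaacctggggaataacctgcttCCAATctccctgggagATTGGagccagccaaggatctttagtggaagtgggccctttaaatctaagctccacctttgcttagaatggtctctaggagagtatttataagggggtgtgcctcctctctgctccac

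For 6 further identity genes the hexamer is shown in capitals with 10 bases on each side, to let the flanks be compared. These were *Brdt* (chr5:107331106-107331131, plus strand, first base 78 before the start), *Hormad1* (chr3:95559647-95559672, plus strand, 20 before), *Sycp3* (chr10:88459534-88459559, plus strand, 43 before), *Taf7l* (chrX:134476524-134476549, minus strand, 49 before), *Slc25a31* (chr3:40708768-40708793, plus strand, 93 before) and *Nxf2* (chrX:134964781-134964806, minus strand, 42 before). The flanking bases differed from gene to gene.
Brdt: caggcacagtCACGTGgcagaccctg
Hormad1: gcgcactgcgCACGTGctgaccggag
Sycp3: gggcatggagCACGTGctaggaggcg
Taf7l: cctcttatacCACGTGacagaactcg
Slc25a31: caactggaaaCACGTGttatggtcac
Nxf2: ctgcaatgatCACGTGaacctccgtt

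In general, promoters of abundant genes were rich in CpG. The median number of CpG in the 250 bases was 15 for genes at 5 to 20 TPM, 17 for genes at 20 to 50 TPM, 19 for genes at 50 to 100 TPM and 19 for genes at 100 TPM or more. The share of promoters with 5 CpG or fewer was 12.3% in the first of these steps and 5.19% in the last. *Nanos2*, at 106 and 110.0 TPM with no CpG in its window, belonged to that small share. Below 5 TPM fewer than 80% of genes had a promoter sequence, and those steps are not described.

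Most genes listed for the PIWI pathway were abundant, though the list also held the general chaperone gene *Hsp90aa1* and the protease gene *Ctsl*. Of its 29 genes, 20 were among the highest 10% of ranked genes and the median was 143 and 133 TPM. *Piwil2*, which amplifies piRNAs in the cytoplasm by slicing, was at 281 and 266 TPM, and *Piwil4*, which enters the nucleus and directs DNA methylation of transposons, was at 145 and 133 TPM. The ratio of *Piwil2* to *Piwil4* was 1.93 and 1.997. *Piwil1*, known for the piRNAs of meiotic cells, was lower, at 30.4 and 25.5 TPM. The tudor domain family, whose members tether PIWI proteins in the nuage, was led by *Tdrd5* at 312 and 313 TPM and *Tdrd1* at 186 and 176 TPM. *Tdrd6*, a member of the granules of later germ cells, was the lowest of the pathway, at 0.437 and 0.507 TPM. *Mov10l1*, the helicase that feeds precursors into the pathway, reached 282 and 270.2 TPM, and *Fkbp6*, a cochaperone of piRNA loading, reached 451 and 447 TPM. *Tex15*, which acts with *Piwil4* in transposon methylation, was at 484 and 455 TPM, and its partner *Spocd1* at 117 and 94.2 TPM. The enzymes that finish piRNA ends spanned a wide range, with the trimmer *Pnldc1* at 88.8 and 87.97 TPM and the methyltransferase *Henmt1* at 17.3 and 18.4 TPM. *Pld6*, the mitochondrial nuclease also known as Zucchini, was at 18.5 and 18.05 TPM. In the microRNA pathway, *Drosha*, which cuts primary transcripts in the nucleus, was at 265 and 273 TPM, while *Dicer1*, which cuts the hairpins, was at 33.7 and 34.4 TPM and *Ago2*, the slicing Argonaute, at 12.7 and 14.9 TPM.

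Pluripotency factors were present at widely different levels. Of 20 listed genes 18 had a value, 16 of them above the median of ranked genes, with a list median of 41.7 and 50.5 TPM. *Dppa4* (735 and 730.1 TPM) and *Utf1* (678 and 711 TPM), both chromatin proteins of pluripotent cells, were the highest. *Sox2*, the partner of the *Pou5f1* protein, was at 87.2 and 98.2 TPM, and *Nanog*, a core factor of the network, was at 40.4 and 53.1 TPM. *Lin28a*, which blocks maturation of let-7, was at 222 and 225 TPM, 6.35 and 6.65 times the level of *Lin28b*. *Klf4* was at 15.4 and 12.02 TPM and *Esrrb* at 17.9 and 19.7 TPM, close to the median of ranked genes. *Tbx3* was the lowest, at 0.149 and 0.285 TPM. *Fgf4* and *Nr0b1* were not analysed here.

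Genes that specify primordial germ cells also spanned a wide range, with a median of 24.7 and 28.8 TPM over 12 genes. The interferon-induced surface proteins *Ifitm1* and *Ifitm3*, early marks of the lineage, were at 265 and 307 TPM and 119 and 133 TPM, respectively. The founder factors *Prdm1*, also known as Blimp1, and *Prdm14* were at 29.5 and 33.8 TPM and 17.2 and 19.98 TPM, while *Tfap2c*, the third of this group, was at 11.8 and 11.1 TPM. T, the mesoderm factor Brachyury, and *Tfap2a* were the lowest of the list, with 1.79 and 2.11 TPM for T and 1.39 and 1.34 TPM for *Tfap2a*.

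Genes of spermatogonial stem cells ranged widely. *Sall4*, a zinc finger factor of pluripotent and germ cells, had 325 and 296 TPM, and *Etv5*, a target of GDNF signalling, had 102 and 114 TPM. *Taf4b*, a germ cell subunit of TFIID, was at 120.3 and 122 TPM and *Foxo1*, which marks gonocytes and early spermatogonia, at 80.4 and 77.6 TPM. Lower in the list, *Gfra1*, the GDNF coreceptor, was at 1.38 and 1.44 TPM, although *Ret*, the kinase it works with, was at 32.2 and 33.1 TPM. *Zbtb16*, also known as PLZF, was at 5.35 and 4.71 TPM, *Neurog3* at 0.903 and 1.09 TPM and *Pax7* at 1.15 and 0.711 TPM. The median of the 20 genes was 22.3 and 24.99 TPM, with 4 of 20 in the lowest 25% of ranked genes.

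The male fetal programme was led by *Tdrd5*, *Piwil2* and *Tex19.1*, the last a suppressor of retrotransposons with 179 and 173 TPM. *Nanos2*, which keeps male germ cells from entering meiosis, was at 106 and 110.0 TPM, place 967, and its relative *Nanos3*, a survival factor of primordial germ cells, was at 53.9 and 61.6 TPM, so that the ratio of *Nanos2* to *Nanos3* was 1.97 and 1.79. *Dnd1*, an RNA-binding partner of *Nanos2*, stood at 167 and 157 TPM. *Nodal* signalling, which acts in fetal male germ cells, was represented by *Lefty2* at 31.9 and 43.8 TPM, *Lefty1* at 25.5 and 30.3 TPM and *Nodal* itself at 17.3 and 17.2 TPM, whereas the coreceptor *Tdgf1*, also known as Cripto, was at 2.46 and 4.27 TPM. Of the receptors and mediators, *Bmpr1a* had 59.1 and 61.9 TPM, *Acvr2b* 29.2 and 26.4 TPM and *Smad4*, the common mediator, 87.6 and 88.5 TPM. The BMP targets *Id1* and *Id2* were in the lowest 25% of ranked genes, at 2.44 and 1.40 TPM and 1.37 and 0.881 TPM. *Fgf9*, a signal that somatic cells of the testis send to germ cells, was at 0.650 and 0.308 TPM, and *Kitl*, the somatic ligand of KIT, at 1.26 and 1.29 TPM, while the receptor *Kit* was at 19.8 and 23.7 TPM. Among retinoic acid genes, the receptor *Rara* had 40.6 and 40.99 TPM and the synthesis enzyme *Aldh1a2* 31.9 and 34.7 TPM. *Cyp26b1*, which degrades retinoic acid and is known from Sertoli cells, was at 0.835 and 1.09 TPM, and *Stra8*, the retinoic acid target that precedes meiosis, at 2.73 and 3.39 TPM.

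Genes for writing DNA methylation were listed with cofactors and with genes for its removal, such as *Tet2* and *Tdg*. All 19 had a value, with a median of 38.5 and 37.03 TPM. *Dnmt1*, the maintenance enzyme, was at 85.3 and 91.1 TPM, place 1298. *Dnmt3a*, the de novo enzyme required for paternal imprints, was at 54.4 and 50.1 TPM, against 8.32 and 8.12 TPM for *Dnmt3b* and 8.87 and 9.05 TPM for *Dnmt3c*, the rodent enzyme that methylates young transposons. Since *Dnmt3b* and *Dnmt3c* are similar in sequence, their split is uncertain. *Hells*, a chromatin remodeler needed for methylation of repeats, led the list with 136 and 157 TPM, next to *Morc1*, a transposon silencer of male germ cells, with 144 and 132 TPM. *Tet1*, which oxidizes methylated cytosine, was at 93.99 and 111 TPM, 2.52 and 3.0 times the level of *Tet2*.

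Histone methylation enzymes were above the median of ranked genes in 30 of 30 cases, with a median of 66.3 and 67.3 TPM. *Ehmt2*, also known as G9a and a writer of histone H3 lysine 9 methylation, was the highest, at 198 and 184 TPM. *Nsd1*, which methylates histone H3 lysine 36, was at 135 and 129 TPM, and its relatives *Nsd2* and *Nsd3* at 51.4 and 51.2 TPM and 18.4 and 18.1 TPM. *Kdm1a*, a histone demethylase, had 172 and 175 TPM and *Kdm1b*, needed for maternal imprints in oocytes, 103 and 98.1 TPM. Among polycomb subunits, the catalytic gene *Ezh1* was above *Ezh2*, with 68.9 and 67.98 TPM against 28.4 and 30.4 TPM, a ratio of 2.43 and 2.24. The shared subunits *Suz12* and *Eed* stood at 110.1 and 124 TPM and 83.5 and 83.9 TPM. *Rnf2*, the ubiquitin ligase of the other polycomb complex, was at 84.1 and 98.5 TPM, whereas its paralogue *Ring1* was at 6.89 and 7.21 TPM. Of factors that bind imprinted regions, *Trim28* had 361 and 386 TPM, *Ctcf*, the insulator protein, 51.2 and 53.2 TPM and *Zfp445* 49.2 and 54.03 TPM, but *Zfp57*, which guards imprints in the embryo, had 1.65 and 1.93 TPM. *Ctcfl*, the testis paralogue of *Ctcf* also known as BORIS, was at 5.80 and 4.09 TPM.

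Imprinted genes were spread over the whole range. Among their protein-coding members, those above the median of ranked genes were 5 of 12 in the *H19*, *Igf2* and *Kcnq1* cluster, 1 of 6 at other paternal germline regions and 14 of 25 at maternal germline regions. In the distal chromosome 7 domain that the study targeted, the noncoding RNA *H19* (chr7:142575529-142578143, minus strand, GRCm38) was at 53.4 and 53.9 TPM, from 1999 and 2038 read pairs. *Igf2*, the fetal growth factor that shares enhancers with *H19* (chr7:142650766-142666816, minus strand), was at 1.09 and 0.751 TPM, from 95 and 66 read pairs. *Gm33148*, a noncoding gene annotated between *H19* and *Igf2* on the opposite strand (chr7:142591744-142620804, plus strand), was at 2.28 and 1.80 TPM, from 251 and 200 read pairs. Further along the cluster *Cdkn1c*, a growth inhibitor, was at 36.7 and 33.6 TPM, *Kcnq1ot1*, the long noncoding RNA of its silencing, at 4.55 and 4.96 TPM and *Kcnq1*, within which *Kcnq1ot1* lies antisense, at 0.112 and 0.0636 TPM. *Nap1l4*, at the edge of the cluster, was the highest, at 192 and 204 TPM. Genes at the other regions methylated in the paternal germ line had a median of 3.55 and 2.82 TPM, with *Meg3* at 3.55 and 2.82 TPM, *Dlk1* at 1.78 and 1.42 TPM and *Rasgrf1* at 1.56 and 1.39 TPM, against 19.3 and 18.4 TPM for *Zdbf2*. Genes of maternal germline regions were more abundant, with a median of 12.9 and 13.5 TPM over 27 genes. *Peg3* (98.3 and 105 TPM), a zinc finger protein gene, *Peg10* (71.9 and 56.5 TPM), derived from a retrotransposon, and *Igf2r* (67.4 and 68.7 TPM), the receptor that clears IGF2, were its highest members. *Plagl1* and *Magel2* were among the lowest, at 1.82 and 1.97 TPM and 0.468 and 0.422 TPM. Allelic origin could not be read from the gene table.

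Mitosis genes were abundant. All 30 were above the median of ranked genes in the mean of both libraries and 12 were among the highest 10%, with a median of 58.95 and 64.9 TPM. *Bub1*, a kinase of the spindle checkpoint, was the highest, at 234 and 245 TPM. *Ccnb1*, the mitotic cyclin, was at 94.995 and 101 TPM, whereas its kinase *Cdk1* was at 20.04 and 23.9 TPM. *Mki67*, which coats mitotic chromosomes and serves as a mark of cycling cells, was at 59.03 and 75.9 TPM, with *Top2a*, the topoisomerase of chromosome segregation, at 123 and 143 TPM. DNA replication genes were lower, with a median of 29.9 and 30.8 TPM. Within that list the helicase subunits *Mcm7* and *Mcm6* reached 139 and 138 TPM and 118 and 126 TPM, while the loading factor *Cdc6* was at 5.35 and 4.35 TPM, the thymidine kinase gene *Tk1* at 2.03 and 2.71 TPM and *Gins2* at 1.57 and 1.33 TPM. Inhibitors of cell cycle kinases and pocket protein genes, which act in arrest, had a median of 19.19 and 19.24 TPM. *Rb1*, the retinoblastoma protein gene, led them with 108 and 119 TPM, and *Cdkn1b*, also known as p27, was at 42.7 and 44.2 TPM. *Cdkn2b*, also known as p15, was at 10.5 and 8.38 TPM and *Cdkn2c*, also known as p18, at 1.13 and 0.970 TPM. Of the D-type cyclins, *Ccnd1* was at 3.06 and 3.11 TPM and *Ccnd2* at 4.68 and 4.33 TPM, below the median of ranked genes, and *Ccnd3* at 17.2 and 17.3 TPM, above it. Their kinase *Cdk4* was at 195 and 199.6 TPM. RNA levels alone do not tell cycling from arrested cells, and a mixture of both in the sorted pool was not tested.

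Many genes named for meiosis were transcribed, though meiosis lies ahead of these cells. The 38 meiotic prophase genes had a median of 19.5 and 19.5 TPM, 24 above the median of ranked genes and 8 among the highest 10%. Components of the synaptonemal complex, which pairs homologous chromosomes, were led by *4930447C04Rik*, also known as Six6os1, at 275 and 292 TPM, *Sycp1* at 216 and 211 TPM and *Sycp3* at 153 and 171 TPM. *Stag3*, a cohesin subunit of meiosis, was at 162 and 157 TPM, 2.58 and 2.42 times the level of its mitotic paralogue *Stag2*. Of genes for the breakage and repair of DNA in meiosis, *Spo11*, which makes the breaks, was at 23.2 and 24.4 TPM, *Dmc1*, which pairs the broken ends, at 14.6 and 16.6 TPM and *Prdm9*, which places the breaks, at 3.93 and 4.37 TPM. *Mei1* was the lowest member, at 0.360 and 0.412 TPM. Of the genes of spermatids 5 of 16 had a value, with a median of 3.62 and 2.83 TPM. *Ldhc*, the lactate dehydrogenase of sperm, was the highest of these at 15.9 and 15.5 TPM, and *Tnp1*, a transition protein of sperm chromatin, was at 3.61 and 2.83 TPM. *Prm1*, *Prm2*, *Tnp2* and *Acrv1* were not analysed here.

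Genes for making and folding proteins filled many of the highest places. *Eef1a1*, which brings transfer RNA to the ribosome, was at place 1 with 7156 and 7465 TPM, and *Eef2*, the translocation factor, had 2234 and 2241 TPM. *Eef1a2*, the neuronal and muscle paralogue of *Eef1a1*, was the lowest of the translation factors listed, at 0.977 and 0.594 TPM. The 85 cytoplasmic ribosomal protein genes had a median of 319 and 336 TPM, from *Rplp1* at 1995 and 2241 TPM and *Rpl4* at 1996 and 2160.3 TPM, the highest, to *Rpl24*, among the lowest, at 9.82 and 8.03 TPM. Ribosomal protein genes have many processed copies, so reads left out as ambiguous make the low values among them uncertain. Mitochondrial ribosomal protein genes had a median of 32.8 and 35.2 TPM. Heat shock proteins and chaperones had a median of 266 and 291 TPM, and 19 of the 27 ranked members were among the highest 10%, *Cct6a* being unranked through its annotation as a processed transcript. *Hsp90ab1*, the constitutive HSP90, was at 2963 and 3112 TPM, place 2, and *Hsp90aa1* at 1989.5 and 2077 TPM, place 7. *Hspa8*, the constitutive HSP70, was at 1676 and 1665 TPM, against 10.2 and 7.70 TPM for *Hspa1a* and 37.4 and 26.7 TPM for *Hspa1b*, which are induced by heat and share most of their sequence. *Stip1*, which links HSP70 to HSP90, was at 1146 and 1182 TPM. The ring chaperone that folds actin and tubulin was represented by *Cct8* at 1110.0 and 1192 TPM and *Cct2* at 1089 and 1146 TPM. Proteasome subunits had a median of 117 and 125 TPM, led by *Psmd2* at 585 and 585 TPM. The immunoproteasome subunits *Psmb9* and *Psmb10* were the lowest, at 0.413 and 0.249 TPM and 3.27 and 3.44 TPM. Splicing and RNA-binding factors were all above the median of ranked genes (26 of 26), with a median of 118 and 126 TPM. Outside the lists, *Npm1*, a nucleolar chaperone of ribosome assembly, was at 1112 and 1348 TPM, and *Sdc4*, a heparan sulphate proteoglycan of the cell surface, at 1242 and 1178 TPM, place 15.

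Metabolic lists lay nearer to the middle. Glycolysis genes had a median of 20.6 and 20.8 TPM. *Pkm*, the pyruvate kinase gene of dividing cells and muscle, was at 329 and 358 TPM, and *Slc2a3*, a glucose transporter, at 40.7 and 41.2 TPM. *Ldhb*, the heart-type lactate dehydrogenase, was above *Ldha*, with 129.9 and 166 TPM against 9.43 and 13.1 TPM. The ratio of *Ldhb* to *Ldha* was 13.8 and 12.6. It was smaller in read pairs, with 3105 and 3993 for *Ldhb* against 475 and 668 for *Ldha*, so it depends in part on the lengths used. Nuclear genes of complex I of the respiratory chain had a median of 54.2 and 60.8 TPM, and those of ATP synthase and cytochrome oxidase 69.4 and 74.5 TPM. Cholesterol synthesis genes had a median of 19.6 and 20.3 TPM, with *Hmgcs1*, the synthase at the entry of the pathway, at 99.7 and 110.1 TPM. Among peroxide defence genes, *Prdx1*, a peroxiredoxin, was the highest, at 412 and 425 TPM.

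Apoptosis genes ranged widely. *Mdm2* and *Mdm4*, which restrain p53, were at 127 and 129 TPM and 113 and 117 TPM, and *Trp53*, the p53 gene, at 43.3 and 48.98 TPM. Of the genes that promote cell death, *Bax* was at 43.9 and 51.8 TPM and *Bak1* at 1.58 and 1.24 TPM. Of those that restrain it, *Mcl1* was at 58.2 and 61.9 TPM, *Bcl2l1*, also known as Bcl-x, at 51.1 and 44.8 TPM and *Bcl2* at 0.495 and 0.448 TPM. *Bcl2* was thus in the lowest 25% of ranked genes in both libraries. Immediate early genes, which respond to handling of tissue, had a median of 9.07 and 8.28 TPM, with *Jund* at 297 and 277 TPM, *Fos* at 13.99 and 10.3 TPM and *Egr1* at 15.9 and 15.2 TPM. Integrated stress response targets had a median of 23.5 and 27.8 TPM, with *Ddit3*, also known as CHOP, at 10.6 and 7.26 TPM and *Atf3* at 1.86 and 2.24 TPM. The part that trypsin digestion and sorting had in these levels was not tested.

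Markers of other cells of the testis were low. The median of 15 Sertoli cell markers was 2.05 and 2.11 TPM, and on the scale of log2(TPM + 0.1) the median of germ cell identity genes was higher by 6.61 ± 0.05 (SD, n = 2 libraries). *Dmrt1*, known from both Sertoli and germ cells, was the exception at 105 and 113 TPM, while *Amh*, the hormone of fetal Sertoli cells, was at 7.40 and 5.69 TPM, *Sox9*, their master factor, at 1.87 and 2.05 TPM and *Wt1* at 2.05 and 2.11 TPM. Without *Dmrt1*, the 14 Sertoli markers summed to 45.9 and 43.6 TPM. As the identity list was drawn up with earlier results of these data known, its difference from Sertoli markers cannot measure purity. Leydig cell markers had a median of 2.71 and 3.27 TPM, with the steroid enzymes *Cyp17a1* at 3.44 and 4.96 TPM and *Cyp11a1* at 1.13 and 1.86 TPM, and only *Ptch1*, the hedgehog receptor, above the median of ranked genes with 73.5 and 72.5 TPM. The 9 Leydig markers besides *Ptch1* summed to 25.7 and 29.1 TPM. Interstitial and peritubular markers had a median of 1.68 and 2.07 TPM, with *Mfap4*, a protein of the extracellular matrix, above the median of ranked genes at 16.6 and 18.3 TPM and the other 16 at a sum of 35.3 and 38.9 TPM. Endothelial markers had a median of 1.61 and 2.29 TPM, with *Pecam1*, an adhesion molecule, at 16.7 and 19.7 TPM, *Plvap*, of the vessel wall, at 17.6 and 16.6 TPM and the VEGF receptor gene *Kdr* at 0.386 and 0.469 TPM. The 8 endothelial markers besides *Pecam1* and *Plvap* summed to 16.6 and 16.8 TPM. Of macrophage and leukocyte markers 4 of 12 had a value, with a median of 0.681 and 0.506 TPM and a sum of 12.7 and 10.5 TPM, among them *Cd68* at 11.1 and 9.43 TPM and *Adgre1* at 0.203 and 0.0804 TPM, and of erythroid markers 3 of 11, with a sum of 7.77 and 6.32 TPM, among them the globin gene *Hbb-bs* at 4.19 and 4.24 TPM. No marker of these lists with a value was at 0 in either library. Only 34 and 49 of all 20643 genes with a value were at 0, so this does not describe the markers. *Insl3*, *Fshr*, *Sox17*, *Ptprc*, *Csf1r* and the globin genes *Hba-a1* and *Hbb-bt* were not analysed here. Of 9 mesonephros and epithelial markers with a value, *Lhx1* and *Epcam* were above the median of ranked genes. The other 7 summed to 8.63 and 7.08 TPM. *Epcam*, an adhesion molecule of epithelia that germ cells also carry, was at 98.2 and 111 TPM. The keratin genes *Krt8*, *Krt18* and *Krt19* were at 1.21 and 0.765 TPM, 2.93 and 3.08 TPM and 0.992 and 0.597 TPM, respectively. In bulk RNA, a few cells of another type and little of a transcript in every cell cannot be told apart, and the part of other cells in the values was not tested.

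**Figure D2:**
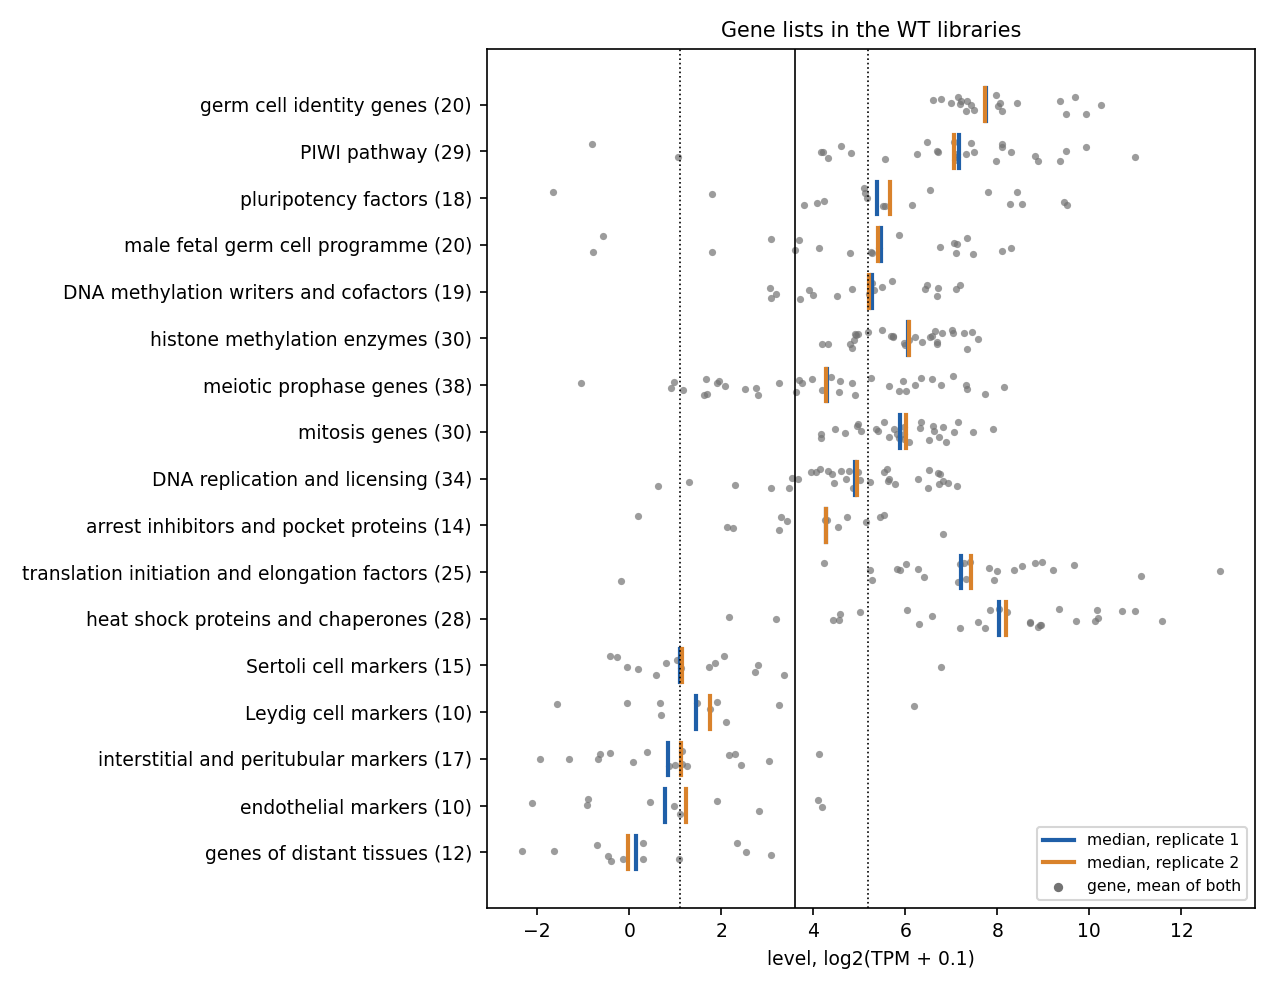
Levels of 17 gene lists on a log2(TPM + 0.1) axis, with a grey point for the mean of each gene (number of genes in brackets) and a bar for the list median in each WT library. The solid line marks the median and the dotted lines the quartiles of nuclear protein-coding genes. Medians of germ cell identity genes, translation factors and chaperones lie to the right of the upper quartile. Those of the PIWI pathway, histone methylation enzymes, mitosis genes, pluripotency factors, the male fetal programme and DNA methylation writers also lie there. Medians of the 4 somatic testis lists and of distant tissues lie near or below the lower quartile.

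Genes of tissues outside the gonad were low as well. Of 20 such genes 12 had a value, with a median of 1.01 and 0.888 TPM. *Alb*, the serum albumin gene, was at 0.0841 and 0.111 TPM, and *Myh6*, the myosin of the heart, at 0.840 and 0.774 TPM. Hox genes, which pattern the body axis, had a value in 16 of 39 cases, with a median of 0.696 and 0.855 TPM and *Hoxd8* the highest at 3.93 and 3.61 TPM. Olfactory receptor genes had a value in 40 of 1135 cases, with a median of 0.328 and 0.216 TPM. *Olfr316* was the highest of them, at 6.81 and 5.22 TPM. Among the X-linked Rhox homeobox genes, 10 of 34 had a value, and *Rhox5*, *Rhox10* and *Rhox1* led with 133 and 144 TPM, 60.1 and 57.1 TPM and 36.5 and 37.2 TPM, while *Rhox6* and *Rhox9* were at 2.02 and 1.80 TPM and 0.660 and 0.471 TPM. In the Sox family, *Sox4* (114 and 118 TPM) and *Sox2* (87.2 and 98.2 TPM) stood above *Sox15* (11.8 and 15.6 TPM) and *Sox5* (0.398 and 0.376 TPM). In the Fox family, *Foxr1*, a forkhead gene of germ cells, led with 126 and 129.9 TPM, above *Foxo3* (90.9 and 85.2 TPM). Tubulin genes were led by *Tubb5* (828 and 831 TPM), and the germ cell gene *Tuba3a* was at 147 and 151 TPM, 3.12 and 2.99 times the level of *Tuba1b*, with the reservation that tubulin copies share sequence. Collagen genes had a median of 1.68 and 1.82 TPM over 43 genes.

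By the rank of the mean log2 value, which does not correct for length, 10 of the 20 highest genes were not nuclear protein-coding genes. First came *Gm26917* (chr17:39843013-39846341, plus strand) with 1497073 and 1320378 read pairs, and *Rn7sk*, the RNA that restrains transcription elongation, with 1047099 and 994414 read pairs. *Gm42418* (chr17:39846958-39848788, plus strand) was the fourth, with 452753 and 431096 read pairs. RefSeq places Rn18s-rs5, a gene related to 18S ribosomal RNA, over 1245 of its 1831 exonic bases, and *Gm26917* lies beside it on chromosome 17. As ribosomal RNA was reduced before sequencing, the part of that step in these read pairs was not tested. Mitochondrial messenger RNAs took 4.35 and 4.54% of read pairs, with *mt-Co1*, a subunit of cytochrome oxidase, at 978156 and 1028166 read pairs. By contrast, *mt-Co3* had 1 and 7 read pairs, a value that is uncertain where only uniquely placed reads are counted. *Malat1*, a nuclear long noncoding RNA, had 237674 and 221172 read pairs. Of the nuclear protein-coding genes in the 20, the first were *Eef1a1*, *Mdn1* and *Hsp90ab1*. *Mdn1*, a ribosome assembly factor with 21836 exonic bases, had 145574 and 147620 read pairs but only 438 and 440.2 TPM, so its rank by read pairs followed its length in part. Nuclear protein-coding genes as a class took 85.9 and 86.6% of read pairs, the pair *Gm26917* and *Gm42418* 4.32 and 3.81%, and all pseudogenes 0.435 and 0.429%. The 100 highest genes held 22.5 and 22% of read pairs, and 913 and 920 genes held 50% of them.

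**Figure D3:**
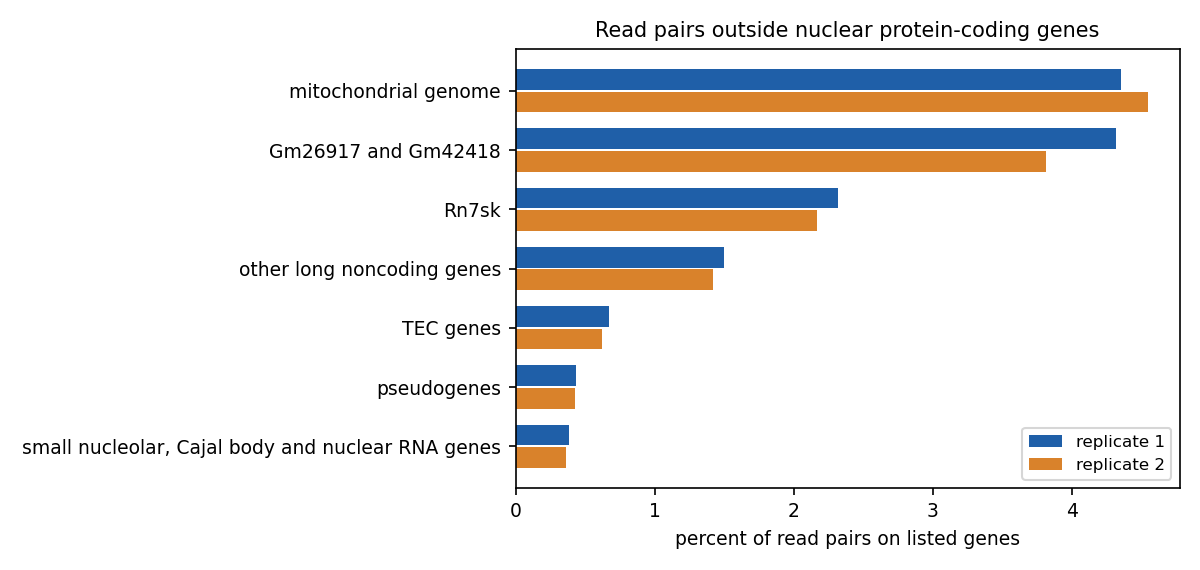
Percent of read pairs on the listed genes in each WT library (bars start at 0), by kind of gene, for kinds other than nuclear protein-coding genes. TEC genes are models that GENCODE holds for experimental checks. The mitochondrial genome (4.35 and 4.55%) and the pair *Gm26917* and *Gm42418* (4.32 and 3.81%) take the largest shares.

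On the TPM scale, *Rn7sk* alone made up 20.8 and 19.6% of the total, which lowers the TPM of all other genes together and leaves their order as it is. Among genes annotated as long noncoding, *Gm26917*, *Gm42418* and *Malat1* (2236 and 2062 TPM) were followed by *Cct6a*, a chaperonin gene that GENCODE vM21 lists as a processed transcript, at 624 and 681 TPM. Next came *Zim2*, which lies in the imprinted *Peg3* domain and is also listed as a processed transcript, at 253 and 199.7 TPM. Below these stood *Gm10076* at 174 and 179 TPM, *D930016D06Rik* at 109 and 111 TPM and *Snhg1*, a host of small nucleolar RNAs, at 85.6 and 93.6 TPM. Small nucleolar RNAs such as *Snora73b* (8627 and 7137 TPM) reached high TPM over a short length, and these levels are not set beside those of longer genes. *Firre*, an X-linked nuclear RNA, was at 35.1 and 34.5 TPM and *Neat1*, the scaffold of paraspeckles, at 1.33 and 1.17 TPM.

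The X chromosome had the lowest median of all chromosomes. Over protein-coding genes at 1 TPM or more, 486 X-linked genes had a median of 14.2 and 14.5 TPM, and 11840 autosomal genes 18.96 and 19.09 TPM. The difference was -0.40 ± 0.01 on the log2 scale (SD, n = 2 libraries). Medians of the 19 autosomes ranged from 3.95 to 4.48 on the log2 scale in the mean of both libraries, and that of the X was 3.85, so the X lay just below chromosome 7, the lowest autosome. The size of the difference depended on which genes were counted, and with genes from 0.1 TPM or from 5 TPM on it was -0.21 and -0.26, respectively. *Xist*, the RNA that coats an inactive X in female cells, was at 9.46 and 9.11 TPM, and its antisense gene *Tsix* at 0.703 and 0.739 TPM.

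Of the Y chromosome, 10 protein-coding genes reached 1 TPM, with a median of 34.2 and 29.3 TPM. *Eif2s3y*, a translation initiation factor subunit that male germ cells need for proliferation, was at 139 and 145 TPM, 7.75 and 7.37 times the level of its X-linked partner *Eif2s3x*. *Uba1y*, which activates ubiquitin, was at 129 and 140.3 TPM, 0.228 and 0.251 times the level of *Uba1*. *Uty* was at 43.2 and 41.5 TPM, 1.43 and 1.27 times the level of its partner *Kdm6a*. Further pairs with the Y copy below the X copy had ratios of 0.124 and 0.115 for the helicase genes *Ddx3y* and *Ddx3x*, 0.231 and 0.227 for the demethylase genes *Kdm5d* and *Kdm5c* and 0.203 and 0.153 for the deubiquitinase genes *Usp9y* and *Usp9x*. *Zfy1*, a zinc finger factor, was at 19.7 and 21.4 TPM and its copy *Zfy2* at 6.70 and 6.10 TPM. Reads that match both copies of a pair alike were left out of both.

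**Figure D4:**
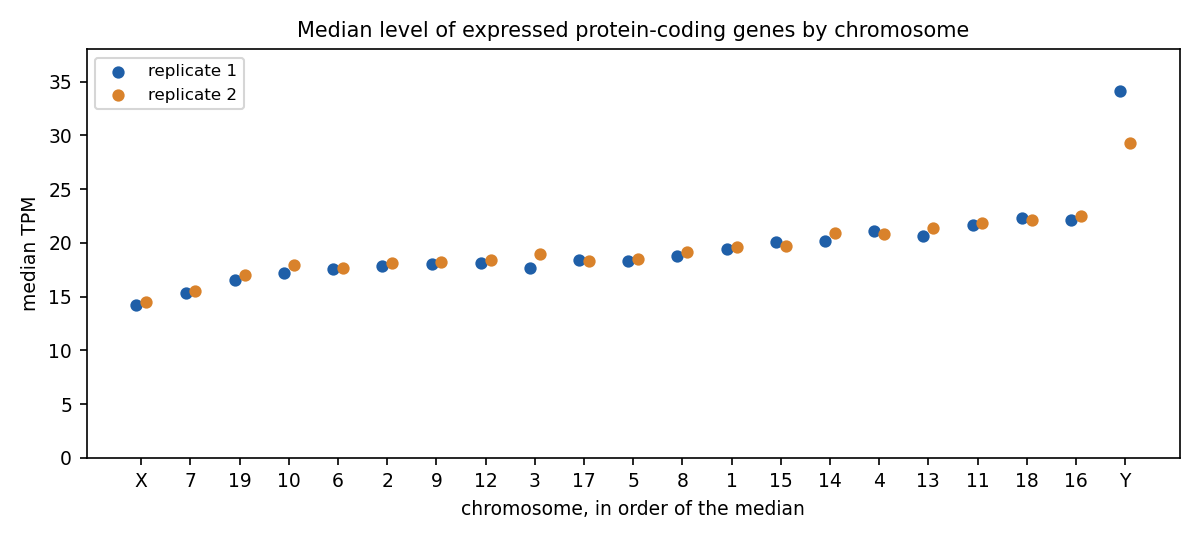
Median TPM of protein-coding genes at 1 TPM or more on each chromosome, in order of the median, with a point for each WT library. The X lies lowest, at 14.2 and 14.5 TPM, and the Y, with 10 genes, highest, at 34.2 and 29.3 TPM.

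The 2 WT libraries gave near-equal levels for most genes. Of 16174 genes with a mean of at least 1 CPM, 80.1% differed by less than 1.2-fold and 65 differed by more than 2-fold. Among 3454 genes with at least 3000 read pairs, the SD of the log2 difference was 0.10, where counting alone would give 0.0268. The gene most unlike was *Smt3h2-ps*, a processed pseudogene on the X chromosome, with 0 and 188 read pairs. *Phex*, an X-linked endopeptidase gene known for phosphate balance, had 562 and 1871 read pairs, a log2 difference of 1.74 between replicate 2 and replicate 1. *Gm10800* and *Gm10801*, neighbours on chromosome 2, were lower in replicate 2, with 2337 and 723 read pairs for the former and 539 and 159 for the latter. The other genes among the 10 most unlike were *Gm43111*, *Gm21738*, *Gm5905*, *Faim2*, *Tgm7* and *Gm6787*, all lower in replicate 2. None of the 20 germ cell identity genes was among these 10 of 16174 genes, which are too few for the absence to describe the list. Among genes with at least 1000 read pairs, the median log2 difference between replicate 2 and replicate 1 was 0.08 for the 25% with the shortest exonic length and 0.02 for the 25% with the longest, and its part in the small differences between lists was not tested.

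**Figure D5:**
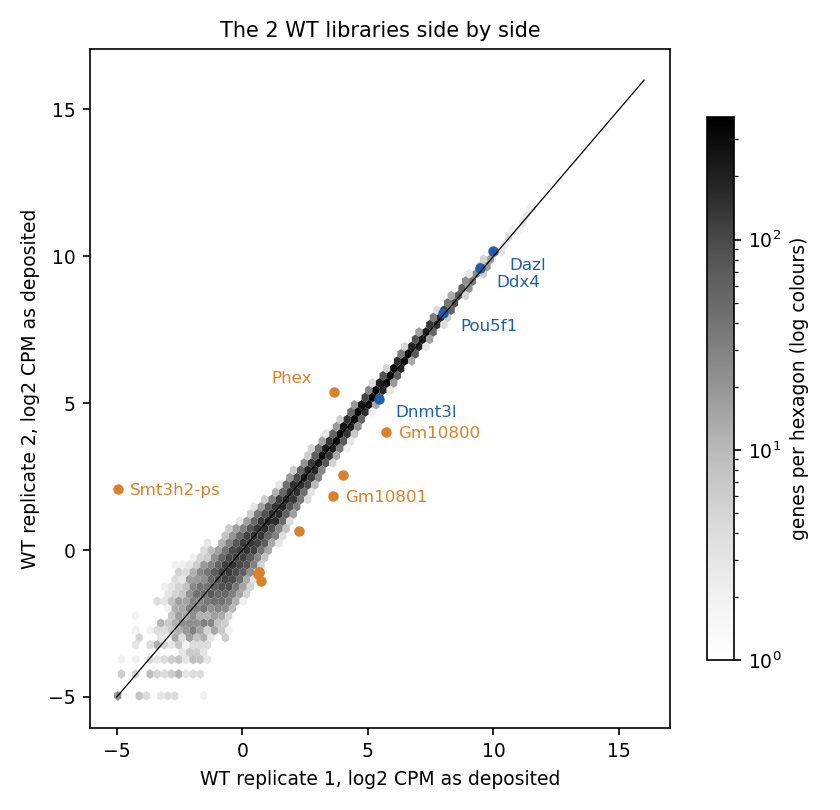
Deposited log2 CPM of all 20643 genes in WT replicate 1 and replicate 2, as hexagons shaded by the number of genes on a log colour scale, with the line of equal values. Blue points are *Dazl*, *Ddx4*, *Pou5f1* and *Dnmt3l*, close to the line, and orange points are the 10 genes that differ most, with *Smt3h2-ps* farthest from it.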

How the data were processed

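Total RNA-seq of sorted EGFP+ prospermatogonia was analysed in the 2 WT libraries, grouped by the titles of the labels. According to the methods, 500 ng of RNA was depleted of ribosomal RNA, sheared and sequenced as 50-bp pairs. Trimming by the authors used Trim Galore 0.6.0, and STAR 2.7.8 gave alignments to mm10 and gene counts. Among other tools, deepTools and edgeR appear in the submitters' processing notes. The sources used here do not give the annotation release, strand setting or gene filter, so antisense partners may share reads. What the authors deposited is log2 CPM with a mean prior count of 2 read pairs.

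Undoing the log and prior returned whole read pairs in both libraries (100% of values, within 1e-06 of a read). This step was tested on simulated data, in which no read pair was recovered wrongly. Lengths, names and positions came from GENCODE vM21 (GRCm38) by Ensembl ID for 20610 genes, and 33 genes had none. Levels were summarized in Python 3.11.15 with pandas 2.3.3, with a pseudocount of 0.1 TPM on the log2 scale. Each value is given per library, and with 2 libraries and no comparison of groups no test was run. Depth is 45.1 and 45.9 M read pairs, and SDs cover 2 libraries.

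Genes named were the 20 highest by mean log2 value, the 20 highest protein-coding and 10 highest long noncoding genes by TPM, and in each list the first 6 written, the 6 highest and the 3 lowest. The rule also took the 3 highest and 2 lowest of each name class, the 10 genes most unlike between the libraries at 1 CPM or more and genes the paper names. Other genes, gene pairs and the promoter motif were chosen after their values were seen. The members and lists were chosen with earlier results of these data known. Promoters came from the first RefSeq entry of a gene, found for 11958 of 14734 ranked genes (81.2%) outside chromosome 18, and the 250 bases before the start were searched on both strands. Alternatives were other thresholds, lengths, totals and pseudocounts and each library alone.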

Additional observations from a re-analysis of the deposited data

How the results depend on the processing

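With 2 libraries and no group to compare, levels were described and not tested. No paired analysis was possible because only 1 group was described. The number of genes at 1 TPM or more in both libraries stayed within 1.5 times of 16563 under every alternative run, from 14629 at 2 TPM to 18184 at 0.5 TPM, and was 16845 and 17102 in a single library. The share of read pairs in the 100 highest genes was 22.2%, 19.16% without the mitochondrial genome and genes under 200 exonic bases, and 13.6% when *Rn7sk*, *Gm26917* and *Gm42418* were also left out, an alternative chosen after seeing the data. In a single library the share was 22 to 22.5%. The median of germ cell identity genes minus that of Sertoli cell markers, 6.61 on the log2 scale, was 6.20 with the longest transcript as length, 6.67 and 6.12 with pseudocounts of 0.01 and 1, 7.04 with the deposited values, 6.64 without *Dmrt1* (chosen after seeing the data) and 6.58 to 6.64 in a single library. The X-linked minus autosomal difference, -0.40, was -0.21, -0.38 and -0.26 for genes from 0.1, 0.5 and 5 TPM on, -0.47 with the longest transcript, and -0.44 to -0.40 in a single library. It was negative throughout, and the cause of its spread was not tested. Of 44 list medians, 29 moved by more than the spread between the libraries with the longest transcript. So did 9 with a pseudocount of 0.01 and 25 with a pseudocount of 1, the last raising low lists by up to 1.32. With the longest transcript, changes over the 44 medians ran from -0.25 to 0.90 on the log2 scale. Of the 10 highest lists, 9 stayed among the 10 highest with that length. The median CpG number of the highest 25% of genes was 19 by TPM and by the deposited values.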

Other observations

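Pseudogenes, which the lists did not hold, took 0.435 and 0.429% of read pairs over 1348 genes with a value. *Gm15772*, a processed pseudogene on chromosome 5, was at 1070.1 and 1179 TPM, *Rps26-ps1* at 917 and 1059 TPM and *Rps4l* at 680.1 and 703 TPM. *Gm15772* thus stood between *Dppa3* and *Mael* in mean TPM.

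Other X-linked germline families were low but present. Of the Magea, Mageb and *Xlr* genes 21 of 24 had a value, with a median of 7.18 and 8.43 TPM. *Xlr3c* was the highest, at 36.1 and 40.7 TPM, and *Mageb2* the lowest, at 0.556 and 0.315 TPM. *Xlr* copies share sequence, so their split is uncertain.

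Zinc finger genes named Zfp had a value in 373 of 394 cases, with a median of 12.97 and 13.3 TPM, close to that of all ranked genes. Histone genes had a median of 59.8 and 69.7 TPM over 72 of 103 genes, in libraries made without selection for poly(A). *Hist1h4d* was the highest of them, at 645 and 578 TPM. Among Klf factors, *Klf7* (71.1 and 68.6 TPM) and *Klf11* (60.3 and 56.9 TPM) stood above *Klf4* (15.4 and 12.02 TPM).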
